A study of Homo sapiens with 6 samples.

Results

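Solute carriers are the largest group of membrane transport proteins in human cells, and their genes share the symbol root SLC. The members described here are the protein-coding genes of the count table whose symbol has the form SLC, family number, A, member number, with at least 60 raw counts summed over all 6 libraries. They were thus chosen by name and by the summed count, which is a description and was not tested. Of 216 genes with such symbols, 182 met this rule, from 41 families, in a table of 18118 genes of which 13044 are protein coding. The pigment cell carriers SLC45A2 and SLC24A5, 2 genes, were set aside by name, and 32 genes lay under the count limit. All 182 members passed the filter on low counts and were tested.

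The cells were SU-CCS-1, an established human clear cell sarcoma line that carries EA1, the fusion protein EWSR1::ATF1, the driver of this tumour. They received control siRNA, EA1 siRNA 1 or EA1 siRNA 2 (5 pmol), and mRNA libraries made from total RNA 48 h after transfection were sequenced, 2 per condition. The labels name 2 EA1 siRNAs, while the methods of the study describe 1, and how the 2 differ is not given in the sources used here, so that they are told apart by label alone. All results therefore come from 1 cell line in culture, at 1 time and 1 dose. The labels do not say whether the replicates were separate cultures, so that p-values measure only the spread between these libraries. Throughout, log2FC is knockdown minus control, "averaged" means the mean of both siRNAs against the same 2 control libraries, and a gene "rose" or "fell" only where its edgeR adjusted p was under 0.05 over 14571 genes tested. Since both siRNAs were set against the same control libraries, their agreement is not independent. Levels are read counts scaled to library size with TMM factors (CPM), given for both libraries of each condition in the order replicate 1 and replicate 2.

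Most solute carriers move a small molecule across a membrane without hydrolysing ATP: they let it run down its gradient, exchange it for another solute, or couple its uptake to sodium or protons. A family number groups proteins of related sequence, so members of a family usually, but not always, handle related substrates. Plasma membrane families bring in glucose (SLC2), amino acids (SLC1, SLC7, SLC38) and ions (SLC4, SLC9, SLC12). Most of the SLC25 family sits in the inner mitochondrial membrane, while others serve lysosomes, vesicles and the Golgi. Tumour cells depend on several of them, such as the glucose carriers SLC2A1 and SLC2A3, the lactate exporter SLC16A3 and the leucine exchanger SLC7A5.

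Libraries held 5942808 to 7599305 counts, so that 3 counts, taken as the detection floor, correspond to 0.386 to 0.534 CPM, counting error only. ATF1, the 3′ partner of the fusion, was at 82.2 and 87.4 CPM in control, 21.2 and 20.3 CPM after EA1 siRNA 1 and 21.7 and 22.3 CPM after EA1 siRNA 2 (log2FC -2.03 and -1.94; its row counts reads of the fusion and of the normal gene alike). All 7 genes listed to mark this tumour were detected (SOX10, MITF, PMEL, S100B, ERBB3, TYR and, at 4 and 0 control counts, MLANA). Of these 7, 6 also rose in the average, among them TYR (averaged log2FC 3.1), S100B (2.47), PMEL (2.14), ERBB3 (1.03) and MITF (0.78), while SOX10 was not called (0.16, edgeR adjusted p = 0.192). Their summed level was 3032 and 2860 CPM in control, 7650 and 7843 CPM after EA1 siRNA 1 and 10503 and 6885 CPM after EA1 siRNA 2. This rise of mostly melanocytic genes ran beside every carrier result below, and its part in them was not tested. Of 10 markers listed for leukocytes, endothelium, epithelium and fibroblasts, only CDH5 had a row, with at most 9 counts in a library.

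Of the 182 solute carrier genes, 65 rose and 35 fell in the average of both siRNAs, or 35.7% and 19.2% of the members. Over all genes tested the same calls took 21.5% (higher) and 22.1% (lower), so the share that rose was above the background and the share that fell was close to it. In either direction 54.9% of members and 43.5% of all genes were called. These shares are not taken alike: members are protein coding with at least 60 counts, while the background genes only passed the filter on low counts. The limit sums 4 knockdown but 2 control libraries, so genes that fell can miss it more easily. How this bears on the shares was not tested. With EA1 siRNA 1, 61 members were called higher (background 19.9%) and 33 lower (20.3%). With EA1 siRNA 2, 57 were called higher (background 18.5%) and 28 lower (18.2%). In both knockdowns at once, 52 were called higher (background 14.8%) and 23 lower (15.1%), and in all 75 of these the control libraries did not overlap the 4 knockdown libraries. None was called in opposite directions by the 2 siRNAs. Without regard to calls, 76 members had both control libraries below all knockdown libraries (background 28.1%) and 38 had them above (27.3%). The median averaged log2FC was 0.16 over the members (lower and upper quartile -0.25 and 0.66, range -2.83 to 2.36) and 0.01 over all genes. In such bulk RNA a smaller number of expressing cells and less RNA per cell cannot be told apart.

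**Figure D1:**
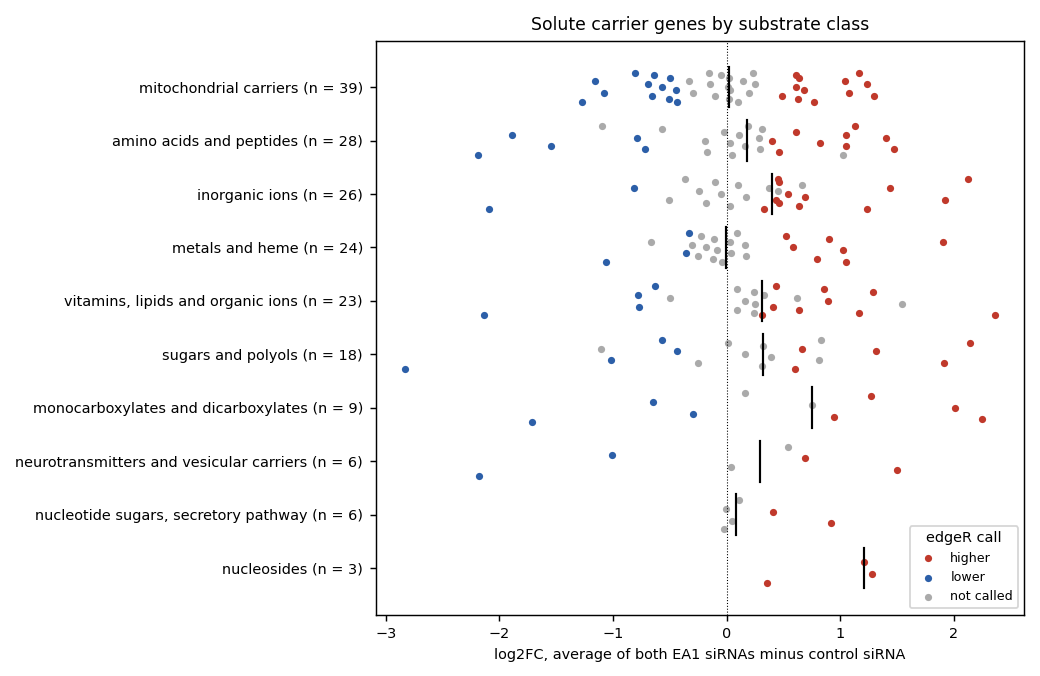
Averaged log2FC (both EA1 siRNAs minus control siRNA, x axis) of the 182 solute carrier genes, 1 point per gene, in rows by substrate class; colours give the edgeR call and black bars the class median. Called genes lie on both sides of 0 in 8 of the 10 classes, from -2.83 (SLC2A3) to 2.36 (SLC46A3).

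An averaged log2FC above 1 was reached by 31 members (background 9.67%) and below -1 by 16 (9.66%). Leaving out each library in turn, 44 of the 65 genes that rose and 24 of the 35 that fell kept their call every time. With EA1 siRNA 1, 36 of the 61 genes called higher and 19 of the 33 called lower did so, and with EA1 siRNA 2, 38 of the 57 and 16 of the 28, and each of the remaining calls was lost without at least 1 library. In the summed level of all members the libraries stood at 14116 and 13879 CPM in control, 14906 and 15477 CPM after EA1 siRNA 1, and 17550 and 15845 CPM after EA1 siRNA 2. All knockdown libraries were above both controls in this sum. A large part of the rise lay in the SLC7 family, which holds SLC7A5. Its sum was 2040 and 2042 CPM in control, 2960 and 3071 CPM after EA1 siRNA 1, and 3723 and 3441 CPM after EA1 siRNA 2. Just inside the count limit lay SLC4A3, SLC15A3 and SLC19A3 (68, 69 and 69 counts in all), and just outside it SLC10A5, SLC40A1 and SLC13A3 (55, 54 and 51 counts). SLC40A1, the iron exporter ferroportin, and SLC7A7, a leucine and arginine exchanger (37 counts), are thus among the genes not described. A gene low in one condition can pass the limit through another, which happened rarely: 2 of the 65 genes that rose had under 20 counts over both control libraries, and 0 of the 35 that fell had under 40 over the 4 knockdown libraries.

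In 13 families some members rose and others fell, so family number alone did not give the direction. SLC2, SLC16 and SLC25 each held called genes in both directions, as did SLC1, SLC5, SLC6, SLC7, SLC9, SLC22, SLC36, SLC37, SLC38 and SLC39. Only SLC2, SLC16 and SLC25 had more than 1 called gene in each direction. In every other of these families at least 1 direction rested on 1 gene. Among such single genes, SLC5A6, SLC9A3, SLC22A5 and SLC37A4 lost their averaged call without at least 1 library. Levels per kb of exon allow only a rough comparison of different genes. The length is the union of all annotated exons, so a gene with much annotated exon reads lower. SLC1A3 (21227 bases) and SLC6A8 (5697 bases) had mean control levels of 477.1 and 488.3 CPM, but 22.48 and 85.7 CPM per kb. By this measure the highest member in control was SLC7A5, the leucine and aromatic amino acid exchanger LAT1 (337 and 347 CPM per kb). Next were SLC25A5, an ADP/ATP carrier (313 and 305), and SLC16A6, a monocarboxylate carrier family member (157 and 140). SLC25A6, another ADP/ATP carrier (138 and 142), and SLC6A8, the creatine carrier (84.2 and 87.2), followed. SLC7A5 and SLC25A6 rose in the averaged test, SLC16A6 fell, and SLC25A5 and SLC6A8 were not called. Reads of SLC7A5, SLC25A5, SLC25A6 and SLC6A8 can be shared with near-identical copies elsewhere in the genome, and their counts are uncertain to that extent. The same holds for members that overlap another protein-coding gene, 65 in all, such as SLC16A6 (with ARSG), SLC16A3 (CSNK1D), SLC31A2 (FKBP15), SLC37A3 (RAB19), SLC9A3 (EXOC3) and SLC2A12 (TBPL1).

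ATF1 and its relatives bind the cAMP response element TGACGTCA, and AP-1 factors the related TGAGTCA, which on the other strand reads TGACTCA. Both were searched on both strands in the 250 bases before the RefSeq start of 145 matched members and of 27305 genes in all (RefSeq, GRCh38.p14). The full element TGACGTCA lay in 1.77% of all windows and in 4 members: SLC31A1, the copper importer, which rose; SLC25A25 and SLC25A33, carriers of ATP-Mg and of pyrimidine nucleotides, which fell; and SLC25A36, another pyrimidine nucleotide carrier, which was not called. Its 5-letter core TGACG, which the full element contains, lay in 29% of the members' windows and 21.7% of all. TGAGTCA lay in 8 members, or 5.52% (all: 4.16%), among them the sodium-coupled glutamine carrier SLC38A1, which fell, and the glucose carrier SLC2A12, which rose. The bZIP motif TGATGNAA lay in 2.76% of the members' windows (all: 3.19%), and the E-box CACGTG in 10.3% (all: 6.49%). Printed here are the 4 windows with the full element and 2 of those with TGAGTCA, 5′ to 3′ on the strand of the gene, with TGACGTCA, TGAGTCA or TGACTCA, and CACGTG in capitals. They run over chr9:113221294-113221543 (+), chr9:128098257-128098506 (+), chr1:9539215-9539464 (+), chr3:140941586-140941835 (+), chr12:46266517-46266766 (-) and chr6:134052625-134052874 (-). A match of letters is a description, and no binding data were used here. The study itself mapped EA1 binding in mouse tumours and, from EWSR1 and ATF1 data, in SU-CCS-1 and DTC-1 cells. Most of its sites lay outside promoters, and it also reported motifs not searched here, such as TGA repeats.
SLC31A1: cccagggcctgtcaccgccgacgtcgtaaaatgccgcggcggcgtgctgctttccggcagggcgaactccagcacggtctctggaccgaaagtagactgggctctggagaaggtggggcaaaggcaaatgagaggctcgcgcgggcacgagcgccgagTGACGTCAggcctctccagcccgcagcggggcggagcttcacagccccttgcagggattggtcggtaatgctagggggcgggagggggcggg
SLC25A25: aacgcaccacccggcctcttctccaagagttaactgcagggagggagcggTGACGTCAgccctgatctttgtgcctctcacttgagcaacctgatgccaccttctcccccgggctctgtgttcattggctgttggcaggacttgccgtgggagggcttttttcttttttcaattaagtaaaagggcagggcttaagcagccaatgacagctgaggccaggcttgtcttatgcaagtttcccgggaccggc
SLC25A33: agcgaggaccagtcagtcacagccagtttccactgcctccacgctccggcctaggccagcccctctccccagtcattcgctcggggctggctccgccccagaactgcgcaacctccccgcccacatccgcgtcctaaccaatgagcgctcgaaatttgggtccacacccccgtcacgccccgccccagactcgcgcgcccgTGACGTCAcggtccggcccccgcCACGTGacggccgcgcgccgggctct
SLC25A36: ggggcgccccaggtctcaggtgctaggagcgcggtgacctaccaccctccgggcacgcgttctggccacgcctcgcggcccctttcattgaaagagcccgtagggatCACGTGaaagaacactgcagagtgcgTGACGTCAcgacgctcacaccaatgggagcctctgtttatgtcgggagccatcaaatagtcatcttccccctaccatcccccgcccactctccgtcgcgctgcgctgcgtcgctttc
SLC38A1: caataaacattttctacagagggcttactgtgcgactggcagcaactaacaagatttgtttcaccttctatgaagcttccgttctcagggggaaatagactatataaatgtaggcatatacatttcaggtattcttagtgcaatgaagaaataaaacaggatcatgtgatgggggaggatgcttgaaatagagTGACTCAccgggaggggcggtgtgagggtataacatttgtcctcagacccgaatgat
SLC2A12: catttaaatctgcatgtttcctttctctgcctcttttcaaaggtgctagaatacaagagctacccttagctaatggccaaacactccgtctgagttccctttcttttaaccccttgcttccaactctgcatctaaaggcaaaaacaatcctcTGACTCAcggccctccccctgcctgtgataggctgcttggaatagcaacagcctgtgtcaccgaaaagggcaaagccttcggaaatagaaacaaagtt

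The full element began 92 bases before the start in SLC31A1, 200 in SLC25A25, 49 in SLC25A33 and 117 in SLC25A36. Their levels went different ways. SLC31A1 was at 70.6 and 70.7 CPM in control, 129 and 131 after EA1 siRNA 1 and 188 and 144 after EA1 siRNA 2, with all knockdown libraries above both controls (averaged log2FC 1.05 ± 0.11 (SE), edgeR adjusted p = 2.05e-05). SLC25A25 was at 40.3 and 40.1 CPM in control, 22 and 20.3 after EA1 siRNA 1 and 29.7 and 33.3 after EA1 siRNA 2 (averaged log2FC -0.64 ± 0.12 (SE), edgeR adjusted p = 0.00133), and its control libraries were above all others. SLC25A33 was at 14.1 and 13.4 CPM in control, 7.96 and 7.9 after EA1 siRNA 1 and 11.7 and 9.69 after EA1 siRNA 2 (averaged log2FC -0.57 ± 0.19 (SE), edgeR adjusted p = 0.0294), a call that was lost without either control library or without either EA1 siRNA 1 library, with log2FC of -0.64 to -0.54 and edgeR adjusted p of 0.0578 to 0.139. SLC25A36 stood at 143 and 160 CPM in control, 149 and 159 after EA1 siRNA 1 and 147 and 163 after EA1 siRNA 2, with overlapping libraries (averaged log2FC 0.03 ± 0.09 (SE), edgeR adjusted p = 0.843).

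Among the 18 sugar and polyol carriers, 5 rose (background 21.5%) and 4 fell (22.1%), with a median averaged log2FC of 0.31. The most strongly lowered of the 182 members was a glucose carrier. SLC2A3 (GLUT3), a high-affinity glucose carrier best known from neurons, lies at chr12:7919230-8019007 (hg38, GENCODE 44). It was at 244 and 226 CPM in control, 36.7 and 44.3 after EA1 siRNA 1 and 19.8 and 33.3 after EA1 siRNA 2. Both control libraries were far above all knockdown libraries, and the EA1 siRNA 2 libraries were the lowest. Its log2FC reached -2.54 and -3.13 in the knockdowns (averaged log2FC -2.83 ± 0.14 (SE), edgeR adjusted p = 9.04e-08). SLC2A14, of the same family at chr12:7812512-7891148, had 50 counts in all and lay under the count limit. It was at 21 and 22 counts in control, 1 and 3 after EA1 siRNA 1 and 0 and 3 after EA1 siRNA 2 (averaged log2FC -3.39, edgeR adjusted p = 0.00129). Whether SLC2A3 and SLC2A14 share reads was not tested. SLC2A1 (GLUT1), the basal glucose carrier of most cells, also fell, from 17.1 and 22.5 CPM to 9.53 and 7.41 CPM after EA1 siRNA 1 and 8.54 and 13.6 CPM after EA1 siRNA 2 (averaged log2FC -1.02 ± 0.22 (SE), edgeR adjusted p = 0.0027). Its call after EA1 siRNA 2 (log2FC -0.82, edgeR adjusted p = 0.0272) was lost without EA1 siRNA 2 replicate 1, at -0.56, and without control replicate 2, at -0.64.

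SLC2A12 (GLUT12), a further glucose carrier, went the other way from a low level. It was at 0.748 and 1.8 CPM in control, 4.55 and 5.11 after EA1 siRNA 1 and 4.45 and 5.62 after EA1 siRNA 2, and its groups did not overlap (averaged log2FC 1.91 ± 0.42 (SE), edgeR adjusted p = 0.00329). SLC5A4, of the sodium/glucose cotransporter family, was at 0.599 and 1.41 CPM in control, 3.84 and 2.14 after EA1 siRNA 1 and 6.76 and 7.16 after EA1 siRNA 2 (averaged log2FC 2.14 ± 0.46 (SE), edgeR adjusted p = 0.00286). These 2 genes lay close to the detection floor in control, and their folds are correspondingly uncertain. SLC37A3, a member of the sugar phosphate carrier family, was well above it, at 32.9 and 37.5 CPM in control, 80.1 and 91.6 after EA1 siRNA 1 and 95.9 and 82.8 after EA1 siRNA 2 (averaged log2FC 1.31 ± 0.12 (SE), edgeR adjusted p = 4.78e-06). Its relative SLC37A4, which carries glucose 6-phosphate into the endoplasmic reticulum, was at 18.1 and 20.3 CPM in control, 15.8 and 15.6 after EA1 siRNA 1 and 10.3 and 10.9 after EA1 siRNA 2 and fell (averaged log2FC -0.57 ± 0.16 (SE), edgeR adjusted p = 0.0123). SLC37A4 was called lower with EA1 siRNA 2 but not with EA1 siRNA 1. Its averaged call was lost without control replicate 2, where the averaged log2FC was -0.52. SLC5A6, the multivitamin carrier for biotin and pantothenate, belongs by function with the vitamins and fell by 0.44 on the log2 scale (edgeR adjusted p = 0.0258). Its call was lost without EA1 siRNA 1 replicate 1, at -0.40 (edgeR adjusted p = 0.0832), and without control replicate 2, at -0.34 (edgeR adjusted p = 0.207). SLC5A6 was not called after EA1 siRNA 1 alone (edgeR adjusted p = 0.077) unless the replicate number was added as a block (edgeR adjusted p = 0.0205).

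**Figure D2:**
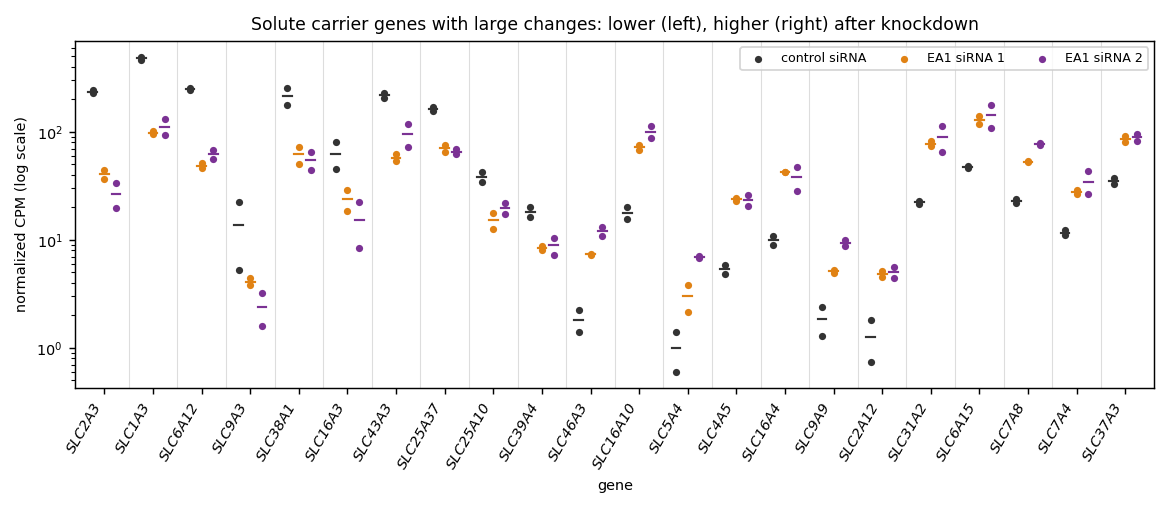
Normalized CPM per library (log scale) of 10 solute carrier genes with large averaged decreases (left) and the 12 with the largest increase (right) among those called with each EA1 siRNA; points are single libraries and dashes the mean of 2 libraries. In every gene both control libraries lie on one side of all 4 knockdown libraries, with SLC2A3 between 19.8 and 44.3 CPM after knockdown against 244 and 226 CPM in control.

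Among 28 carriers of amino acids and peptides, 9 rose (background 21.5%) and 5 fell (22.1%), and the median averaged log2FC was 0.17. All 14 were called with each siRNA (background 14.8% higher and 15.1% lower), but not every call was stable. Those of SLC3A2 and SLC38A10 with each siRNA, and of SLC1A1 and SLC36A4 with EA1 siRNA 1, were lost without at least 1 library. The glutamate carrier SLC1A3 (EAAT1), a marker of glia in brain, lies at chr5:36596588-36688334. It was at 458 and 497 CPM in control, 95.4 and 101 after EA1 siRNA 1 and 93.1 and 130 after EA1 siRNA 2. Knockdown libraries were all far below the lower control library, with nearly the same log2FC for each siRNA (-2.28 and -2.09; averaged log2FC -2.19 ± 0.11 (SE), edgeR adjusted p = 1.02e-07). SLC1A1 (EAAT3), another high-affinity glutamate carrier of the same family, was at 3.59 and 4.5 CPM in control, 7.11 and 9.55 after EA1 siRNA 1 and 9.61 and 9.55 after EA1 siRNA 2 and rose (averaged log2FC 1.13 ± 0.27 (SE), edgeR adjusted p = 0.00478). SLC1A4 and SLC1A5, the neutral amino acid carriers ASCT1 and ASCT2, were not called. SLC1A4 was at 411 and 379 CPM in control, 507 and 525 after EA1 siRNA 1 and 551 and 384 after EA1 siRNA 2 (averaged log2FC 0.31 ± 0.13 (SE), edgeR adjusted p = 0.0693, and 0.0251 with the replicate number as a block). SLC1A5, a major glutamine importer of many tumour cells, was low here, at 0.943 and 0.772 CPM per kb in control, 0.213 and 0.445 after EA1 siRNA 1 and 0.321 and 0.632 after EA1 siRNA 2 (averaged log2FC -1.1 ± 0.47 (SE), edgeR adjusted p = 0.079).

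Glutamine and alanine also enter through the sodium-coupled SLC38 family, where the neighbouring genes SLC38A1 and SLC38A2, 88171 bases apart on chromosome 12, had different calls. SLC38A1 (SNAT1), whose window with TGACTCA is printed above, was at 256 and 176 CPM in control, 72.8 and 50.6 after EA1 siRNA 1 and 65.5 and 44.5 after EA1 siRNA 2. Its controls differed from each other but both were above all knockdown libraries (averaged log2FC -1.89 ± 0.18 (SE), edgeR adjusted p = 6.85e-06). SLC38A2 (SNAT2), which cells raise on amino acid shortage, was at 209 and 190 CPM in control, 236 and 241 after EA1 siRNA 1 and 206 and 181 after EA1 siRNA 2 and was not called (averaged log2FC 0.11 ± 0.09 (SE), edgeR adjusted p = 0.372). With EA1 siRNA 1 alone its edgeR adjusted p was 0.0701, and 0.0387 with the replicate block. SLC38A6, an orphan member of the family, rose from 17.5 and 18 CPM to 38.1 and 35.7 CPM after EA1 siRNA 1 and 38.8 and 35.1 CPM after EA1 siRNA 2 (averaged log2FC 1.05 ± 0.13 (SE), edgeR adjusted p = 6.46e-05).

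Large neutral amino acids are exchanged by dimers of a light chain and the heavy chain SLC3A2 (CD98hc). The light chain SLC7A5 (LAT1), the highest solute carrier per kb, was at 337 and 347 CPM per kb in control, 541 and 565 after EA1 siRNA 1 and 689 and 630 after EA1 siRNA 2. All knockdown libraries were above both controls (averaged log2FC 0.82 ± 0.10 (SE), edgeR adjusted p = 5.32e-05). SLC7A8 (LAT2), a second light chain with broader neutral amino acid specificity, was at 3.97 and 3.69 CPM per kb in control, 8.9 and 8.71 after EA1 siRNA 1 and 12.5 and 13 after EA1 siRNA 2. It rose with each siRNA and more after EA1 siRNA 2 (log2FC 1.2 and 1.74). The heavy chain SLC3A2 was at 56.3 and 45.8 CPM per kb in control, 64.9 and 65.3 after EA1 siRNA 1 and 80.8 and 70.2 after EA1 siRNA 2 (averaged log2FC 0.46 ± 0.11 (SE), edgeR adjusted p = 0.00453). Its call was lost without control replicate 2, where the averaged log2FC was 0.28 (edgeR adjusted p = 0.134). Per kb, SLC7A5 exceeded SLC7A8 in every library, also after the larger relative rise of SLC7A8. The remaining light chains gave no call: SLC7A6 (y+LAT2), an exchanger of cationic for neutral amino acids, was at 2.05 and 2.66 CPM per kb in control, 2.96 and 2.82 after EA1 siRNA 1 and 2.25 and 2.74 after EA1 siRNA 2 (averaged log2FC 0.19 ± 0.17 (SE), edgeR adjusted p = 0.395), and SLC7A11 (xCT), the cystine/glutamate exchanger, was at 5.88 and 4.15 CPM per kb in control, 4.17 and 2.71 after EA1 siRNA 1 and 4.69 and 6.3 after EA1 siRNA 2 (averaged log2FC -0.19 ± 0.19 (SE), edgeR adjusted p = 0.44). With EA1 siRNA 1 alone, SLC7A11 had an edgeR adjusted p of 0.081, and of 0.041 with the replicate block.

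Cationic amino acids enter through SLC7A1 (CAT1), which fell from 190 and 167 CPM to 93 and 93.2 CPM after EA1 siRNA 1 and 114 and 114 CPM after EA1 siRNA 2 (averaged log2FC -0.79 ± 0.09 (SE), edgeR adjusted p = 2.11e-05). Its relative SLC7A4, for which no substrate is well established, was at 11.1 and 12.2 CPM in control, 26.3 and 29.1 after EA1 siRNA 1 and 42.9 and 26.3 after EA1 siRNA 2 and rose (averaged log2FC 1.4 ± 0.21 (SE), edgeR adjusted p = 0.000222). In the proton-coupled SLC36 family, the lysosomal carrier SLC36A1 (PAT1) was at 26.5 and 25.6 CPM in control, 53.3 and 54.8 after EA1 siRNA 1 and 45.6 and 60.9 after EA1 siRNA 2 (averaged log2FC 1.05 ± 0.14 (SE), edgeR adjusted p = 8.27e-05), and SLC36A4 (PAT4) at 45.4 and 43.8 CPM in control, 26.3 and 29.3 after EA1 siRNA 1 and 21.4 and 31.3 after EA1 siRNA 2 (averaged log2FC -0.72 ± 0.15 (SE), edgeR adjusted p = 0.00225). These 2 relatives thus went in opposite directions with no overlap between control and knockdown libraries. SLC43A3, placed with the amino acid carriers by its family but known to carry purine nucleobases, was at 206 and 230 CPM in control, 62 and 53.4 after EA1 siRNA 1 and 73 and 117 after EA1 siRNA 2. It fell with each siRNA (log2FC -1.92 and -1.19; averaged log2FC -1.55 ± 0.15 (SE), edgeR adjusted p = 7.03e-06). The gene SLC43A1, 56954 bases away and also called LAT3, was not called (averaged log2FC -0.17 ± 0.31 (SE), edgeR adjusted p = 0.699). SLC15A3, a lysosomal peptide carrier just inside the count limit, was not called either (averaged log2FC -0.57 ± 0.48 (SE), edgeR adjusted p = 0.365).

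**Figure D3:**
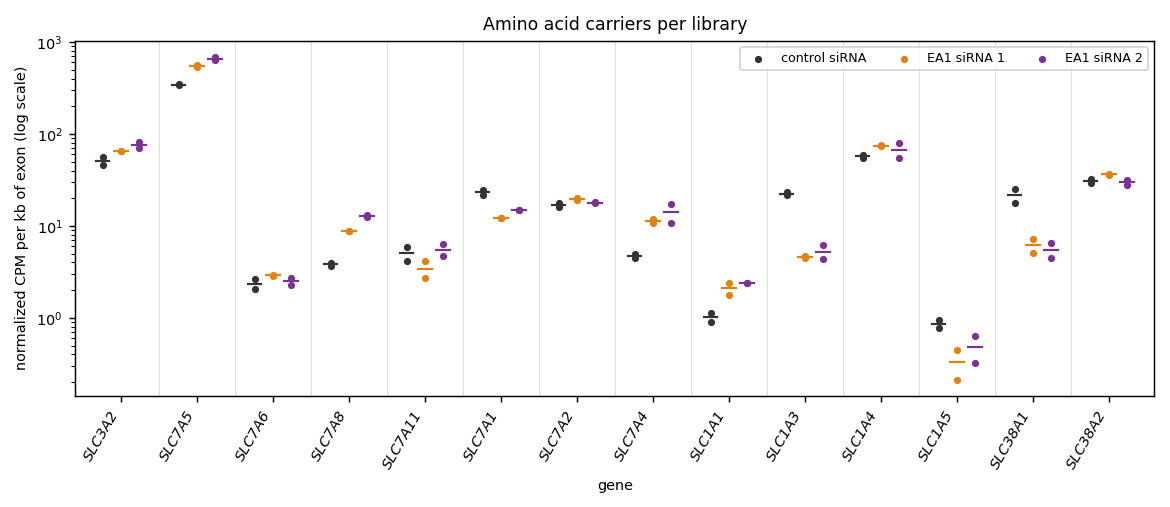
Normalized CPM per kb of exon (log scale) in each library for the SLC3A2 heavy chain and carriers of the SLC7, SLC1 and SLC38 families; points are single libraries, dashes the mean of 2. SLC7A5 stands highest in all conditions (337 and 347 CPM per kb in control), SLC7A8 rises from 3.97 and 3.69 to between 8.71 and 13, and SLC1A3 and SLC38A1 drop.

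Monocarboxylate carriers of the SLC16 family split as well: of 9, 4 rose (background 21.5%) and 3 fell (22.1%). The median averaged log2FC was 0.75, read over few genes. SLC16A3 (MCT4), the low-affinity lactate exporter of glycolytic cells, was at 45.5 and 79.7 CPM in control, 18.6 and 28.8 after EA1 siRNA 1 and 8.37 and 22.2 after EA1 siRNA 2. Its replicates differed widely within each condition, yet the lower control was above the highest knockdown library (averaged log2FC -1.71 ± 0.29 (SE), edgeR adjusted p = 0.000608). SLC16A1 (MCT1), which carries lactate and pyruvate in both directions, stood at 151 and 155 CPM in control, 108 and 129 after EA1 siRNA 1 and 143 and 119 after EA1 siRNA 2 and fell only slightly (averaged log2FC -0.30 ± 0.10 (SE), edgeR adjusted p = 0.0352). The call for SLC16A1 was lost without EA1 siRNA 1 replicate 1, at -0.23 (edgeR adjusted p = 0.129), and without control replicate 1, at -0.32 (edgeR adjusted p = 0.119), or 2, at -0.31 (edgeR adjusted p = 0.127). BSG (basigin), the chaperone that brings both to the cell surface, was at 496 and 451 CPM in control and between 626 and 695 CPM in the knockdown libraries, and rose with each siRNA (log2FC 0.51 and 0.45).

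Other members of SLC16 rose strongly. SLC16A10 (TAT1), a facilitative carrier of aromatic amino acids, was at 20.1 and 15.6 CPM in control, 67.7 and 75.6 after EA1 siRNA 1 and 112 and 87.6 after EA1 siRNA 2. No library of one side reached the other, and the averaged fold was 4.76 (averaged log2FC 2.25 ± 0.15 (SE), edgeR adjusted p = 6.09e-07). SLC16A4, whose substrate is less well defined, was at 10.9 and 9.0 CPM in control, 42.8 and 42.5 after EA1 siRNA 1 and 47.7 and 28.5 after EA1 siRNA 2 (averaged log2FC 2.01 ± 0.22 (SE), edgeR adjusted p = 2.04e-05). SLC16A7 (MCT2), a high-affinity pyruvate and lactate carrier, rose after EA1 siRNA 2 (edgeR adjusted p = 0.0623 after EA1 siRNA 1, and 0.0362 with the replicate block). SLC16A6 fell after EA1 siRNA 1 alone. The values of both stand with the differences between the siRNAs.

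Mitochondrial carriers were the largest family, with 39 members, and were evenly divided: 12 rose, 12 fell and 15 were not called (median averaged log2FC 0.02). These 12 of 39 in each direction compare with backgrounds of 21.5% (higher) and 22.1% (lower). Their summed level was 2735 and 2721 CPM in control, 3054 and 3302 CPM after EA1 siRNA 1, and 3441 and 2990 CPM after EA1 siRNA 2. SLC25A37 (mitoferrin-1), which brings iron into the matrix for heme and iron-sulfur clusters, was at 169 and 157 CPM in control, 75.7 and 64.7 after EA1 siRNA 1 and 68.7 and 61.8 after EA1 siRNA 2, with a wide gap between control and knockdown (averaged log2FC -1.27 ± 0.09 (SE), edgeR adjusted p = 1.27e-06). SLC25A28 (mitoferrin-2) fell less (averaged log2FC -0.50 ± 0.16 (SE), edgeR adjusted p = 0.0226), a call lost without control replicate 1, at -0.58 (edgeR adjusted p = 0.0528), control replicate 2, at -0.45 (edgeR adjusted p = 0.142), or EA1 siRNA 1 replicate 2, at -0.48 (edgeR adjusted p = 0.0593). SLC25A10, the dicarboxylate carrier for malate and succinate, was at 34.6 and 42 CPM in control, 12.5 and 17.8 after EA1 siRNA 1 and 22.1 and 17.4 after EA1 siRNA 2 (averaged log2FC -1.16 ± 0.17 (SE), edgeR adjusted p = 0.000202).

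Further mitochondrial carriers are named here for their known substrates and, like SLC25A28, after their values were seen. SLC25A32, which imports folate or FAD, had log2FC of -0.99 and -0.64 with the 2 siRNAs, SLC25A38, the glycine carrier needed for heme synthesis, -0.58 and -0.80, and SLC25A15, the ornithine carrier of the urea cycle, -0.88 and -0.44. All 3 were called with each siRNA, without overlap between control and knockdown libraries, but not every call was stable. After EA1 siRNA 2, that of SLC25A15 was lost in 5 of the 6 fits that left out 1 library (all but that without EA1 siRNA 2 replicate 2; edgeR adjusted p of 0.0548 to 0.197), and that of SLC25A32 without EA1 siRNA 2 replicate 1 or control replicate 1 (0.0504 and 0.0769). After EA1 siRNA 1, that of SLC25A38 was lost without EA1 siRNA 1 replicate 2 or control replicate 1 (0.0781 and 0.0506). Among those that rose was SLC25A1, the citrate carrier that supplies cytosolic acetyl-CoA, at 39.2 and 36.6 CPM in control, 51.2 and 71.5 after EA1 siRNA 1 and 57.1 and 57 after EA1 siRNA 2 (averaged log2FC 0.64 ± 0.14 (SE), edgeR adjusted p = 0.00258). SLC25A12 and SLC25A13, the aspartate/glutamate carriers of the malate-aspartate shuttle, rose together, with log2FC of 0.59 and 0.63 and of 0.69 and 0.67. The averaged call for SLC25A12 was lost without control replicate 1, at 0.55 (edgeR adjusted p = 0.0587). Its calls with each siRNA were lost without either control library (edgeR adjusted p of 0.0546 to 0.0931), and also without replicate 2 of EA1 siRNA 1 (0.44, edgeR adjusted p = 0.165) and replicate 1 of EA1 siRNA 2 (0.39, edgeR adjusted p = 0.138). SLC25A16 and SLC25A44, the latter a carrier of branched-chain amino acids, rose more, with averaged log2FC of 1.23 ± 0.11 (SE, edgeR adjusted p = 5e-06) and 1.16 ± 0.13 (SE, edgeR adjusted p = 2.06e-05). SLC25A53, an orphan carrier with the largest rise in the family, was low, at 2.84 and 2.57 CPM in control, 7.82 and 6.09 after EA1 siRNA 1 and 7.48 and 5.33 after EA1 siRNA 2 (averaged log2FC 1.3 ± 0.32 (SE), edgeR adjusted p = 0.00643), and lost its call without control replicate 2, at 1.19 (edgeR adjusted p = 0.0554).

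Of the 3 ADP/ATP carriers, which exchange matrix ATP for cytosolic ADP, only SLC25A6 was called. SLC25A4 (ANT1), the muscle form, was at 14.5 and 14.1 CPM per kb in control, 12.6 and 14.3 after EA1 siRNA 1 and 18.8 and 12.6 after EA1 siRNA 2 (averaged log2FC 0.02 ± 0.14 (SE), edgeR adjusted p = 0.916). SLC25A5 (ANT2), the form of dividing cells, was at 313 and 305 CPM per kb in control, 257 and 269 after EA1 siRNA 1 and 400 and 282 after EA1 siRNA 2 (averaged log2FC -0.05 ± 0.12 (SE), edgeR adjusted p = 0.788). The libraries of both overlapped between conditions. SLC25A6 (ANT3) was at 138 and 142 CPM per kb in control, 187 and 206 after EA1 siRNA 1 and 213 and 183 after EA1 siRNA 2 and rose (averaged log2FC 0.49 ± 0.10 (SE), edgeR adjusted p = 0.00137). Of the ATP-Mg/phosphate carriers, SLC25A23 rose with log2FC of 1.01 and 1.07, SLC25A24 fell after EA1 siRNA 2 (log2FC -0.05 and -0.86), and SLC25A25 was called lower after EA1 siRNA 1 and not after EA1 siRNA 2 (log2FC -0.92 and -0.35). The difference between the siRNAs for SLC25A25 had an edgeR adjusted p of 0.0761, and of 0.0379 with the replicate block.

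**Figure D4:**
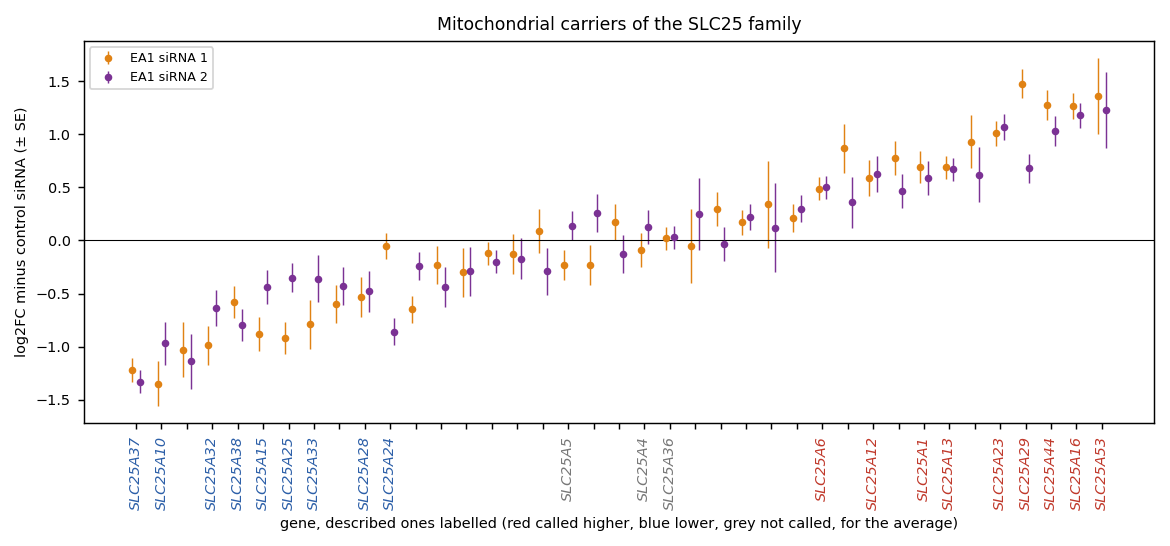
Log2FC against control (y axis, ± SE of the edgeR fit) after EA1 siRNA 1 (orange) and EA1 siRNA 2 (purple) for the 39 SLC25 genes, ordered by the average; genes described in the text are labelled, and label colour gives the averaged call. The values run from SLC25A37 at -1.22 and -1.33 to SLC25A53 at 1.36 and 1.23, and the 2 siRNAs part most at SLC25A24 and SLC25A29.

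Of 24 carriers of metals and heme, 7 rose (background 21.5%) and 3 fell (22.1%), with a median averaged log2FC of -0.01. Copper carriers gave the largest rise: SLC31A2 (CTR2), a copper carrier of endosomes and lysosomes, was at 22.9 and 21.5 CPM in control, 82.2 and 73.4 after EA1 siRNA 1 and 113 and 64.6 after EA1 siRNA 2 (averaged log2FC 1.9 ± 0.20 (SE), edgeR adjusted p = 1.84e-05). It lies 57404 bases from SLC31A1 (CTR1) on chromosome 9, and both genes rose with each siRNA. SLC11A2 (DMT1), the proton-coupled iron importer, was at 96.5 and 105 CPM in control, 184 and 182 after EA1 siRNA 1 and 251 and 207 after EA1 siRNA 2 (averaged log2FC 1.02 ± 0.10 (SE), edgeR adjusted p = 1.11e-05). Zinc carriers of the SLC39 (ZIP) family bring zinc into the cytosol, and those of the SLC30 (ZnT) family take it out. Of 11 SLC39 members, 4 rose and 1 fell, against the same backgrounds. SLC39A13 (ZIP13) rose from 21.9 and 21 CPM to 36.8 and 47.8 CPM after EA1 siRNA 1 and 41.7 and 33.7 CPM after EA1 siRNA 2 (averaged log2FC 0.90 ± 0.15 (SE), edgeR adjusted p = 0.000641). SLC39A4 (ZIP4), the zinc importer of the gut, was at 20.2 and 16.3 CPM in control, 8.82 and 8.07 after EA1 siRNA 1 and 7.3 and 10.5 after EA1 siRNA 2 and fell (averaged log2FC -1.06 ± 0.20 (SE), edgeR adjusted p = 0.00124). SLC39A14 (ZIP14), which also takes up iron, was at 432 and 461 CPM in control, 362 and 360 after EA1 siRNA 1 and 528 and 455 after EA1 siRNA 2 and was called lower after EA1 siRNA 1 (log2FC -0.31 and 0.14, edgeR adjusted p = 0.0396 and 0.35). That call was lost when any 1 of the 4 libraries compared was left out (edgeR adjusted p of 0.0907 to 0.156). Its difference between the siRNAs had an edgeR adjusted p of 0.059, and of 0.0191 with the replicate block. Of 6 SLC30 members only SLC30A6 fell (averaged log2FC -0.33 ± 0.09 (SE), edgeR adjusted p = 0.00843), a call lost without control replicate 2, at -0.33 (edgeR adjusted p = 0.0646). SLC30A1 (ZnT1), the zinc exporter of the plasma membrane, was at 87.4 and 82.4 CPM in control, 93.1 and 83.7 after EA1 siRNA 1 and 83.7 and 87.5 after EA1 siRNA 2 with overlapping libraries (averaged log2FC 0.04 ± 0.09 (SE), edgeR adjusted p = 0.778).

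Among 26 carriers of inorganic ions, 12 rose (background 21.5%) and 2 fell (22.1%), and the median averaged log2FC was 0.40. Only 6 of the 12 kept the call when each library was left out in turn. SLC4A5 (NBCe2), a sodium bicarbonate cotransporter, was at 4.79 and 5.91 CPM in control, 24.3 and 23.1 after EA1 siRNA 1 and 26 and 20.6 after EA1 siRNA 2. Every knockdown library was at least 3 times the higher control (averaged log2FC 2.12 ± 0.20 (SE), edgeR adjusted p = 6.85e-06), and the gene overlaps MTHFD2, whose reads cannot be told apart here without the strand setting. SLC4A2 (AE2), the widely expressed chloride/bicarbonate exchanger, was at 175 and 157 CPM in control, 228 and 242 after EA1 siRNA 1 and 232 and 208 after EA1 siRNA 2 (averaged log2FC 0.45 ± 0.09 (SE), edgeR adjusted p = 0.00199), and lost the call without control replicate 2, at 0.34 (edgeR adjusted p = 0.0639). SLC4A3, just inside the count limit, was not called (averaged log2FC 0.66 ± 0.54 (SE), edgeR adjusted p = 0.349). SLC12A2 (NKCC1), which loads cells with sodium, potassium and chloride, was at 94 and 96.4 CPM in control, 147 and 146 after EA1 siRNA 1 and 150 and 114 after EA1 siRNA 2 and rose (averaged log2FC 0.54 ± 0.11 (SE), edgeR adjusted p = 0.00212).

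Sodium/proton exchangers of the SLC9 family were called in both directions. SLC9A9 (NHE9), an endosomal exchanger, was at 2.39 and 1.29 CPM in control, 5.26 and 4.94 after EA1 siRNA 1 and 9.97 and 8.7 after EA1 siRNA 2 (averaged log2FC 1.92 ± 0.35 (SE), edgeR adjusted p = 0.000963). SLC9A3 (NHE3), the exchanger of kidney and gut epithelium, was at 22.3 and 5.27 CPM in control, 4.41 and 3.79 after EA1 siRNA 1 and 1.6 and 3.23 after EA1 siRNA 2 (averaged log2FC -2.09 ± 0.47 (SE), edgeR adjusted p = 0.00378). Its decrease rested on control replicate 1: without that library the averaged log2FC was -0.72 (edgeR adjusted p = 0.25). SLC20A1 (PiT1), the sodium-phosphate cotransporter, was the other ion carrier that fell, at 113 and 137 CPM in control, 59.7 and 61.1 after EA1 siRNA 1 and 77.1 and 90.1 after EA1 siRNA 2 (averaged log2FC -0.82 ± 0.10 (SE), edgeR adjusted p = 6.74e-05).

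Carriers of vitamins, lipids and organic ions, 23 in all, had 9 that rose (background 21.5%) and 4 that fell (22.1%). Their median averaged log2FC was 0.31. SLC46A3, a lysosomal member of the folate carrier family, had the largest rise of the 182 members, from a low level. It was at 2.25 and 1.41 CPM in control, 7.25 and 7.41 after EA1 siRNA 1 and 13.2 and 10.8 after EA1 siRNA 2, and no control library reached a knockdown library (averaged log2FC 2.36 ± 0.31 (SE), edgeR adjusted p = 9.25e-05). SLC22A5 (OCTN2), the carnitine importer, was at 14.4 and 13.5 CPM in control, 21.6 and 18.8 after EA1 siRNA 1 and 17.1 and 17.8 after EA1 siRNA 2. Its call was marginal (averaged log2FC 0.43 ± 0.16 (SE), edgeR adjusted p = 0.0466) and was lost whichever single library was left out, with log2FC of 0.35 to 0.48 and edgeR adjusted p of 0.0649 to 0.252. SLC27A4 (FATP4), a fatty acid uptake protein with acyl-CoA synthetase activity, was at 66.5 and 74.1 CPM in control, 126 and 132 after EA1 siRNA 1 and 149 and 117 after EA1 siRNA 2 and rose (averaged log2FC 0.89 ± 0.11 (SE), edgeR adjusted p = 6.95e-05). SLC19A1, the reduced folate carrier, was at 13.6 and 12.5 CPM in control, 10.2 and 13.5 after EA1 siRNA 1 and 15.1 and 17.1 after EA1 siRNA 2 and was not called (averaged log2FC 0.09 ± 0.19 (SE), edgeR adjusted p = 0.744). The thiamine carrier SLC19A3, just inside the count limit, was not called (averaged log2FC 1.54 ± 0.73 (SE), edgeR adjusted p = 0.111).

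Carriers of neurotransmitters and osmolytes in SLC6, grouped with vesicular carriers as 6 genes, had 2 that rose (background 21.5%) and 2 that fell (22.1%). Their median averaged log2FC was 0.29. SLC6A12 (BGT1), which carries betaine and GABA, lies at chr12:190077-214570. It was at 253 and 245 CPM in control, 50.9 and 46.4 after EA1 siRNA 1 and 55.9 and 68.1 after EA1 siRNA 2. Control libraries agreed closely and were above all knockdown libraries by a wide margin (averaged log2FC -2.18 ± 0.09 (SE), edgeR adjusted p = 3.15e-08). SLC6A15, a carrier of branched-chain and other neutral amino acids, was at 46.2 and 48.6 CPM in control, 141 and 117 after EA1 siRNA 1 and 175 and 108 after EA1 siRNA 2 and rose (averaged log2FC 1.5 ± 0.18 (SE), edgeR adjusted p = 3.67e-05). The taurine carrier SLC6A6, another osmolyte carrier and named after its values were seen, was at 36.2 and 61.3 CPM in control, 16.9 and 30.6 after EA1 siRNA 1 and 20.3 and 29.2 after EA1 siRNA 2 (averaged log2FC -1.01 ± 0.24 (SE), edgeR adjusted p = 0.00546). Without control replicate 2 its averaged log2FC was -0.61 (edgeR adjusted p = 0.123). SLC6A8, the creatine carrier, was at 480 and 497 CPM in control, 453 and 490 after EA1 siRNA 1 and 580 and 484 after EA1 siRNA 2, with overlapping libraries (averaged log2FC 0.04 ± 0.10 (SE), edgeR adjusted p = 0.791).

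All 3 nucleoside carriers of the SLC29 family were called higher in the average (background 21.5%), and none kept that call in every leave-one-out fit. SLC29A1 (ENT1), the main equilibrative nucleoside carrier, was at 54.9 and 59.8 CPM in control, 69.7 and 67.4 after EA1 siRNA 1 and 82.8 and 72.9 after EA1 siRNA 2 (averaged log2FC 0.35 ± 0.10 (SE), edgeR adjusted p = 0.0146). Without control replicate 1 it was at 0.29 (edgeR adjusted p = 0.142) and without control replicate 2 at 0.38 (edgeR adjusted p = 0.0623). The lysosomal SLC29A3 and the monoamine carrier SLC29A4 were at about 2 CPM in control, and were named to complete the family. SLC29A3 was at 2.54 and 1.93 CPM in control, 7.25 and 3.95 after EA1 siRNA 1 and 7.12 and 3.51 after EA1 siRNA 2 (averaged log2FC 1.28 ± 0.43 (SE), edgeR adjusted p = 0.0292), a call lost without either control library or without replicate 1 of either EA1 siRNA, with log2FC of 0.97 to 1.49 and edgeR adjusted p of 0.0741 to 0.181. SLC29A4 was at 2.25 and 2.31 CPM in control, 4.55 and 5.43 after EA1 siRNA 1 and 6.23 and 5.05 after EA1 siRNA 2 (averaged log2FC 1.21 ± 0.33 (SE), edgeR adjusted p = 0.0115), a call lost without control replicate 1, at 1.19 (edgeR adjusted p = 0.0643), or 2, at 1.2 (edgeR adjusted p = 0.0703). Of the 6 carriers of nucleotide sugars and acetyl-CoA in the secretory pathway, 2 rose, against the same background, and 4 were not called. SLC35A2, which supplies UDP-galactose to the Golgi, was at 23.3 and 24.2 CPM in control, 25.7 and 22.9 after EA1 siRNA 1 and 22.8 and 26.5 after EA1 siRNA 2 and was not called (averaged log2FC 0.05 ± 0.14 (SE), edgeR adjusted p = 0.82).

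Differences between the 2 siRNAs were few, with 9 members called (background 2.24%): 5 were higher after EA1 siRNA 2 (background 1.44%) and 4 were lower (0.796%). With the replicate number as a block 19 members were called (background 5.85%), 13 higher and 6 lower (background of the blocked fit 3.64% and 2.22%), or 7.14% and 3.3% of the members. SLC16A6, a monocarboxylate carrier family member reported to carry ketone bodies and taurine, showed the largest. It was at 637 and 567 CPM in control, 233 and 256 after EA1 siRNA 1 and 551 and 658 after EA1 siRNA 2. Both EA1 siRNA 2 libraries lay close to the controls, one above and one below both, and both EA1 siRNA 1 libraries were below them. The difference, EA1 siRNA 2 minus EA1 siRNA 1, was 1.31 ± 0.12 (SE, edgeR adjusted p = 0.00105), and it kept its call under every alternative. The other 8 each lost the call in at least 1 fit that left out an EA1 siRNA 1 library, with edgeR adjusted p of 0.0599 to 0.347, and SLC7A8 and SLC37A1 also without either control library or with only the 4 libraries compared. SLC16A7 (MCT2) was at 44.6 and 53 CPM in control, 68.8 and 65.5 after EA1 siRNA 1 and 158 and 103 after EA1 siRNA 2, with a difference of 0.95 ± 0.17 (SE, edgeR adjusted p = 0.0178). Its size rested on EA1 siRNA 2 replicate 1: without that library it was 0.62, and without replicate 2 of that siRNA 1.22. SLC22A23, an orphan of the organic ion family, was at 269 and 274 CPM in control, 107 and 134 after EA1 siRNA 1 and 213 and 205 after EA1 siRNA 2, with a difference of 0.79 ± 0.12 (SE, edgeR adjusted p = 0.00784). SLC37A1 was at 41.3 and 39.9 CPM in control, 28.2 and 26.7 after EA1 siRNA 1 and 44.7 and 40.6 after EA1 siRNA 2, with a difference of 0.63 ± 0.14 (SE, edgeR adjusted p = 0.0383). In SLC22A23 all knockdown libraries were below the controls, and in SLC37A1 only those of EA1 siRNA 1.

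SLC7A8, whose values per kb are given above, differed by 0.54 ± 0.11 (SE, edgeR adjusted p = 0.0349). The carriers that were lower after EA1 siRNA 2 were SLC2A11, a fructose and glucose carrier, SLC25A24, SLC25A29, a mitochondrial carrier of basic amino acids, and SLC44A2, a choline carrier-like protein. SLC2A11 was at 16.5 and 19.5 CPM in control, 36.8 and 35.7 after EA1 siRNA 1 and 20.6 and 20.4 after EA1 siRNA 2 (difference -0.82 ± 0.16 (SE, edgeR adjusted p = 0.0248)). In this gene the EA1 siRNA 2 libraries were just above the controls, and the averaged call (0.60 ± 0.14 (SE, edgeR adjusted p = 0.00558)) was lost without control replicate 1, at 0.48 (edgeR adjusted p = 0.064). SLC25A24 was at 78.3 and 82.4 CPM in control, 71.7 and 83.7 after EA1 siRNA 1 and 40.2 and 48.2 after EA1 siRNA 2 (difference -0.81 ± 0.13 (SE, edgeR adjusted p = 0.0107)). SLC25A29 was at 19.8 and 20.8 CPM in control, 53.8 and 59.9 after EA1 siRNA 1 and 32.4 and 32.6 after EA1 siRNA 2 (difference -0.81 ± 0.13 (SE, edgeR adjusted p = 0.0126)). SLC44A2 was at 37.1 and 41.1 CPM in control, 85.5 and 94 after EA1 siRNA 1 and 56.4 and 56.3 after EA1 siRNA 2 (difference -0.67 ± 0.11 (SE, edgeR adjusted p = 0.0137)). SLC25A29 and SLC44A2 rose with each siRNA against control and differed only in size; the call for SLC44A2 after EA1 siRNA 2 was lost without control replicate 1 (edgeR adjusted p = 0.0502). Under the block, 10 more members passed: 8 were higher after EA1 siRNA 2, among them SLC16A10, SLC20A1, SLC25A25, SLC39A14 and SLC43A3, and 2 were lower, among them SLC16A3.

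**Figure D5:**
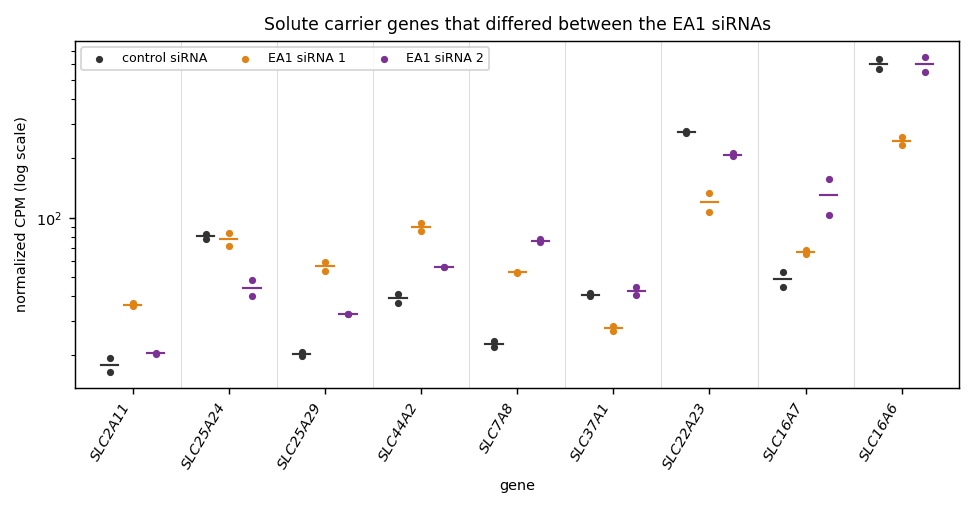
Normalized CPM per library (log scale) of the 9 solute carrier genes called between the EA1 siRNAs; points are single libraries and dashes the mean of 2. In SLC16A6 the EA1 siRNA 2 libraries lie with the controls and the EA1 siRNA 1 libraries below them, while in SLC25A24 the EA1 siRNA 1 libraries lie with the controls.

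Carriers and partners with other symbols were read from a list of 46 genes, of which 33 were tested. In the average 8 of the 33 rose and 12 fell, against backgrounds of 21.5% and 22.1%. Called with each siRNA were 5 higher (background 14.8%) and 9 lower (15.1%). The largest rise among these was FLVCR2, a choline and heme carrier relative, at 1.8 and 3.99 CPM in control, 13.9 and 19.4 after EA1 siRNA 1 and 14.2 and 10.9 after EA1 siRNA 2 (averaged log2FC 2.29, edgeR adjusted p = 0.000142). CTNS, the lysosomal cystine exporter, rose with log2FC of 1.34 and 1.14. The largest fall was that of SLCO5A1, of the organic anion carrier family, at 4.94 and 4.24 CPM in control, 0.853 and 0.329 after EA1 siRNA 1 and 0.89 and 0.421 after EA1 siRNA 2 (averaged log2FC -2.85, edgeR adjusted p = 0.000474). LETM2, a relative of a mitochondrial cation exchanger, and SLCO3A1, another organic anion carrier, also fell (averaged log2FC -2.14 and -1.29). Smaller falls were those of SFXN1, the mitochondrial serine carrier (log2FC -0.86 and -0.72), and ANKH, an exporter of pyrophosphate and citrate (log2FC -1.12 and -0.91). MPC1 and MPC2, which form the mitochondrial pyruvate carrier together, were called in opposite directions in the average (edgeR adjusted p = 5.26e-05 lower and 0.0467 higher). MPC1 was called lower only with EA1 siRNA 1 (log2FC -1.19 and -0.18 with the 2 siRNAs). MPC2 was called higher only with EA1 siRNA 2 (0.18 and 0.51), so neither siRNA alone gave both calls. MPC1 was at 248 and 241 CPM in control, 112 and 102 after EA1 siRNA 1 and 209 and 224 after EA1 siRNA 2, and MPC2 at 36.4 and 35.7 CPM, 38.5 and 43.5 and 57.7 and 45.3 in the same order. MPC1 was one of 4 listed genes that differed between the siRNAs (background 2.24%), with a difference of 1.01 (edgeR adjusted p = 0.00108). Of the 4, 3 were higher after EA1 siRNA 2 (background 1.44%) and 1 was lower (0.796%). These genes were named after their values were seen.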

How the data were processed

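mRNA libraries (stranded kit) of 6 SU-CCS-1 samples were sequenced, and the deposited table holds raw read counts per gene that the authors made with featureCounts (1.6.3, per the labels' processing notes, which also list DESeq2). The aligner's settings, the gene annotation and the strand setting are not given in the sources used here, and reads of overlapping or near-identical genes could be split or merged by the counting; 65 members overlap another protein-coding gene in GENCODE 44. That annotation (hg38) gave coordinates and exon lengths for 18063 of the 18118 identifiers, and 2589 rows carry no symbol. Solute carrier genes were chosen by symbol and count, and grouped by family number into substrate classes.

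Counts were tested with edgeR 4.0.16 (R 4.3.3): TMM scaling, a filter by condition (minimum count 10, minimum total 15), and the quasi-likelihood F test over all 14571 genes that passed, in 1 fit of 3 conditions with 2 libraries each. P-values were adjusted by Benjamini-Hochberg over all of these genes, with a threshold of 0.05. The SE of a log2FC was its size divided by the root of F. CPM were computed from the counts with TMM factors. The common biological coefficient of variation was 0.109. Replicate numbers come from the labels. Deviations from the group means of libraries with the same number correlated over genes, by 0.13, 0.199 and 0.144 in the 3 pairs of conditions. All were above 0.1, but the main fit did not use the number, so calls given without the block leave out any such pairing. A fit with the number as a block was run as an alternative.

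Named genes were the 12 largest averaged changes in each direction called with each siRNA without overlap, up to 5 in each direction called between the siRNAs, 30 well-known carriers, the 5 highest per kb in control, the largest change each way in families with both directions, and 3 genes on either side of the count limit of 60. Some of these genes are not reported here. Others are named where counts are small or a motif, a neighbour or a family calls for them, after their values were seen. The members and all lists were chosen with earlier results of these data known. Alternatives were DESeq2 1.42.0, other size factors, other filters on low counts, all knockdown libraries as 1 condition, only the libraries compared, the block, and leaving out each library.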

Additional observations from a re-analysis of the deposited data

Results flagged for a closer look

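The 9 genes listed here stand out because their response differed between the EA1 siRNAs in the direct edgeR test of EA1 siRNA 2 minus EA1 siRNA 1. The differences were higher with EA1 siRNA 2 for SLC16A6 (1.31 on the log2 scale), SLC16A7 (0.95), SLC22A23 (0.79), SLC37A1 (0.63) and SLC7A8 (0.54). They were lower for SLC2A11 (-0.82), SLC25A24 (-0.81), SLC25A29 (-0.81) and SLC44A2 (-0.67).

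The same difference for ATF1, whose row counts the fusion, was 0.09 (edgeR adjusted p = 0.817).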

How the results depend on the processing

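Counts of called solute carrier genes stayed within 1.5 times of those given for each siRNA and for the average under every alternative. Over all of them, higher and lower calls ranged from 45 to 67 and from 23 to 41 for EA1 siRNA 1, from 44 to 66 and from 19 to 32 for EA1 siRNA 2, and from 48 to 70 and from 27 to 38 for the average. The count between the siRNAs was not stable: 5 genes higher with EA1 siRNA 2 became 9 with DESeq2, 8 without a filter on low counts, 3 with only the 4 libraries compared, 13 with the replicate block, and 1 to 17 when 1 library was left out. The 4 lower genes became 6 with the block and 0 to 7 when 1 library was left out. In both directions the highest counts came without EA1 siRNA 2 replicate 2, and the lowest without an EA1 siRNA 1 library. Beside the changes given with the results, the replicate block added calls after EA1 siRNA 2 for SLC25A28 (edgeR adjusted p = 0.0457) and SLC29A3 (0.024), and it changed no other call described.

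Signs turned only in genes that were not called, when 1 library was left out: the averaged log2FC ranged from -0.04 to 0.18 for SLC19A1, -0.16 to 0.13 for SLC25A4, -0.21 to 0.04 for SLC25A5, -0.04 to 0.08 for SLC30A1, -0.04 to 0.07 for SLC35A2, -0.05 to 0.07 for SLC6A8 and -0.46 to 0.08 for SLC7A11. Averaged calls of 6 named genes were lost with all knockdown libraries as 1 condition (among them SLC16A6, SLC25A24 and SLC2A11, which differed between the siRNAs), and of 4 with DESeq2 (SLC16A1, SLC22A5, SLC29A1 and SLC37A4). SLC22A5 was also lost with other size factors and without a filter on low counts. The cause was not tested. With 2 libraries per condition, folds of genes under 3 CPM in control, such as SLC5A4, SLC2A12, SLC46A3, SLC9A9 and SLC25A53, rest on few counts.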
